A study of Homo sapiens with 30 samples.

Results

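The 10 genes described here encode 5 secreted ligands of the bone morphogenetic protein (BMP) and activin families (BMP2, BMP4, BMP7, GDF15 and INHBA) and 5 secreted antagonists (NOG, GREM1, SOST, FST and CHRD). Every probe on the array that carried one of these gene names was taken, which gave 13 of the 41000 probes. The genes BMP7 and CHRD had 3 and 2 probes, and the other 8 genes had 1 each. The data were 30 two-colour oligonucleotide arrays. They covered 5 lines established from human breast cancers, SK-BR-3, HCC1954, ZR-75-30, HCC1419 and MDA-MB-361, each at 30 min and 1, 3, 6, 12 and 24 h of treatment. On every array the Cy5 channel held RNA of cells given recombinant human BMP4 protein, and the Cy3 channel held RNA of the same line given vehicle for the same time. The cells of triplicate cultures were pooled before RNA extraction, so each line had 1 array per time point. The lines stand for themselves and the 6 time points served as the repeated measurements of a line, so that p-values measured the spread between these arrays.

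BMPs are secreted dimers that bind type I and type II serine/threonine kinase receptors, which phosphorylate SMAD1, SMAD5 and SMAD8, and these enter the nucleus with SMAD4. Noggin (NOG), chordin (CHRD), gremlin (GREM1) and sclerostin (SOST) act outside the cell, NOG, CHRD and GREM1 by holding BMP ligands away from their receptors and SOST mainly by binding the WNT co-receptors LRP5 and LRP6. Follistatin (FST) binds activins tightly and some BMPs more weakly, and activin A is a dimer of the INHBA product. In many tissues BMP signaling raises the expression of its own antagonists, which is a known form of negative feedback.

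The added ligand was a protein, so the BMP4 probe read the transcript of the cells' own BMP4 gene. A probe was counted as measured in a line where the scanner software marked it well above background in both channels on at least 5 of the 6 arrays of that line, as not detected where neither channel passed on any array, and as partly detected otherwise. Of the 65 combinations of probe and line, 40 were measured, 7 were partly detected and 18 were not detected. The 6 probes measured in all 5 lines were those of BMP7, GDF15 and CHRD. The probes of GREM1 and SOST were measured in no line. Ratios below are log2 of BMP4 over vehicle after normalization within the array, and levels are log2 Cy3 (vehicle) signals after normalization between arrays. A level was never set against that of another probe. In these bulk cultures a lower level can stand for fewer expressing cells or for less RNA per cell, which cannot be told apart.

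Between 56.3% and 70.8% of all probes were well above background on an array and channel. Of the BMP response genes, ID1 had a log2 ratio between 0.29 and 1.91 on all 30 arrays, and the lowest values of the ID2 and ID3 probes ran from −0.17 to 0.09. The vehicle levels of each array correlated best with arrays of its own line (mean r 0.963 to 0.995, against at most 0.933 with another line). All 8 epithelial marker genes on the array were well above background in Cy3 on at least 15 arrays, as was 1 of 6 mesenchymal genes (COL1A1, on 28 arrays), while COL1A2 and COL3A1 passed on 5 arrays at most and DCN, LUM and PDGFRB on none. The leukocyte marker PTPRC passed on none, and CD14 on all 30. Ratios were compressed, as the slope of the spike-in controls lay between 0.53 and 0.88. Every slide held 1 line, HCC1419, MDA-MB-361 and SK-BR-3 shared no scan day with another line, and for these lines the line and the scan day cannot be told apart. The dyes were not swapped, and a test of a ratio against 0 therefore also picks up a probe's dye bias.

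The comparison with vehicle asked whether BMP4 treatment moved the transcripts of its own ligand family and of its antagonists. One CHRD probe rose with time in HCC1419 and MDA-MB-361, where it was over 2-fold higher after BMP4 from 6 or 12 h on. No member probe passed the tests common to all 5 lines that compare later time points with 30 min. By the limma test of the late change (mean of 3, 6, 12 and 24 h minus 30 min, with the line as a block), 0 of 13 member probes and 0.0927% of all probes were called at an adjusted p under 0.05. By the F test of any change over time the counts were 0 of 13 member probes and 0.0902% of all probes. At an unadjusted p under 0.05 the member counts were 1 for the late change, beside 4.99% of all probes, and 2 for any change over time, beside 4.2% of all probes. The median late change of the 6 probes measured in all lines was 0.01, and that of all probes was 0.01 as well.

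Tested against 0 at single time points, 0 of 13 member probes were called at 30 min, 1, 6, 12 and 24 h. The shares of all probes called at those times were 0.0805%, 0.973%, 0.176%, 0.463% and 1.58%. At 3 h 1 member probe, that of NOG, was called, beside 0.349% of all probes. With the cell line as a block 4 member results passed, namely GDF15 and NOG at 3 h and CHRD probe A_23_P502047 at 12 and 24 h. In that fit 1.08%, 1.9% and 4.44% of all probes were called at 3, 12 and 24 h.

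The ratios differed between the lines for 3 of 13 member probes (BMP2, BMP7 probe A_23_P68487 and CHRD probe A_23_P502047), and 22.2% of all probes were called in that F test. The member share was therefore close to the background. The vehicle levels differed between the lines for 11 of 13 member probes, all but GREM1 and SOST, and for 73.1% of all probes. The calls for BMP2 and NOG were also made when HCC1954, the only line in which either was measured, was left out, so for these 2 probes the test responded to signals that were not well above background.

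**Figure D1:**
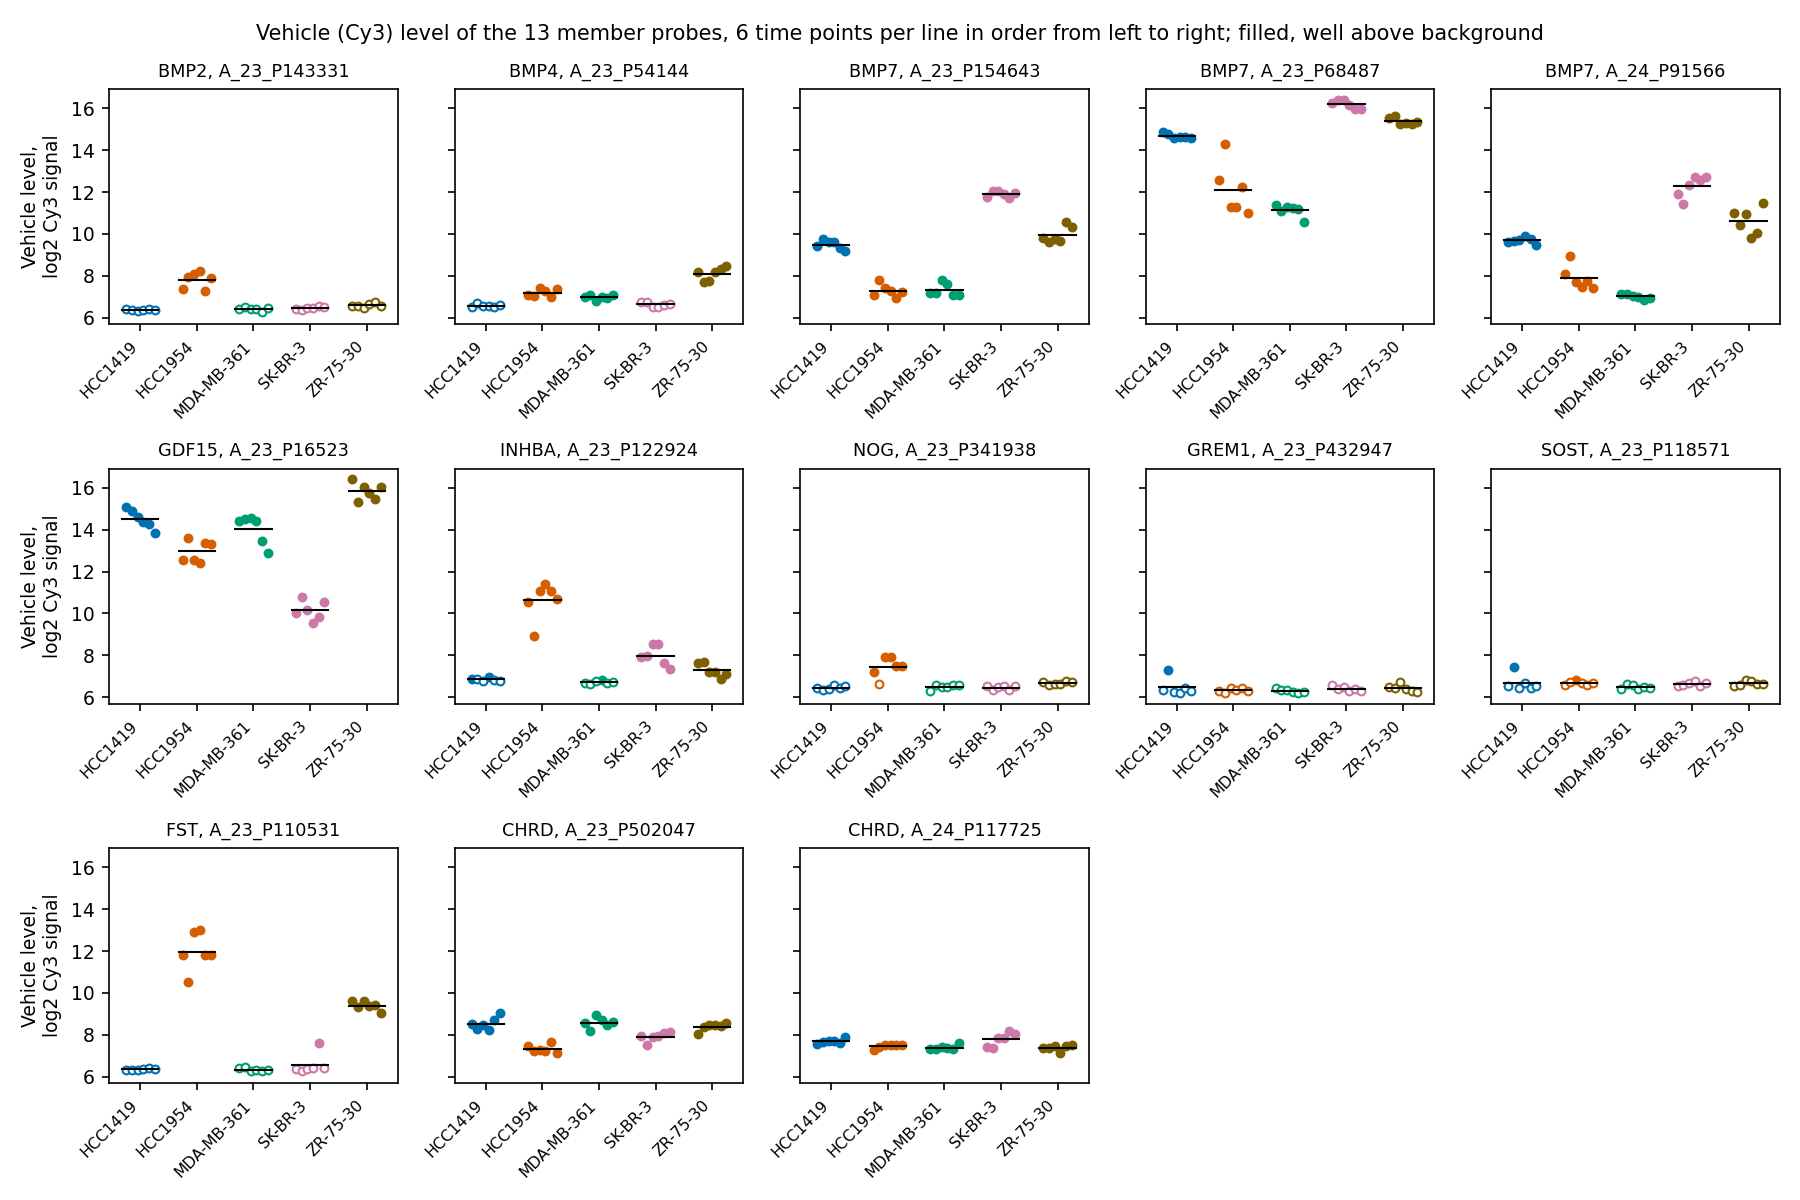
Vehicle (Cy3) level of the 13 member probes, in log2 signal, by cell line; the 6 points of a line are its time points from 30 min (left) to 24 h (right), filled where the spot was well above background in Cy3, and the bar is the mean. BMP7 was highest in SK-BR-3, GDF15 in ZR-75-30, and BMP2, INHBA, NOG and FST in HCC1954, while GREM1 and SOST stayed near background, with 1 array of HCC1419 above it for both and 1 of HCC1954 for SOST.

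BMP4 encodes the ligand that was added as protein. Its probe, at hg18 chr14:53487068-53487127 on the minus strand, was measured in ZR-75-30, HCC1954 and MDA-MB-361 and was not detected in SK-BR-3 and HCC1419. The vehicle level in ZR-75-30 had a lowest, median and highest value of 7.69, 8.17 and 8.45, above every array of HCC1954, which spanned 6.96 to 7.40. The difference between these line means was 0.91 ± 0.15 (SE, 6 arrays each; exact permutation test, two-sided, adjusted p = 0.00487). The MDA-MB-361 values (6.81 to 7.07) overlapped those of HCC1954, and the difference of 0.22 ± 0.09 did not pass (exact permutation adjusted p = 0.0577). Against the 2 lines without detected signal, the ZR-75-30 mean was at least 2.73-fold higher than HCC1419 and at least 2.61-fold higher than SK-BR-3. These lower bounds set the mean of the brighter line against a mean over the arrays of the dimmer one. Each array entered with the lowest signal of any probe well above background, or with the probe's own signal where that was larger.

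The BMP4 log2 ratio in ZR-75-30 lay below 0 on all 6 arrays, with a lowest, median and highest value of −0.44, −0.22 and −0.02. In HCC1954 it was −0.11 ± 0.11 (SD, n = 6) and in MDA-MB-361 −0.04 ± 0.05, each with 1 array not above background in Cy5. The ranges of the 3 lines overlapped. The late change was −0.04 ± 0.06 (SE; limma adjusted p = 0.984), and the difference between lines did not pass (adjusted p = 0.208). These tests, which included 2 lines without a measured BMP4 ratio, called no difference in the transcript of the endogenous gene. The slope over the time points in ZR-75-30 was not called in the main fit (limma adjusted p = 0.367), but was called without 30 min (slope −0.10, limma adjusted p = 0.0273).

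BMP2 encodes a close relative of BMP4 that uses the same receptors. Its probe, at hg18 chr20:6707242-6707301 on the plus strand, was measured in HCC1954 and was well above background on no array of the other 4 lines. The vehicle level in HCC1954 spanned 7.27 to 8.21 with a median of 7.92, at least 2.23-fold to 2.47-fold higher than in the other lines. The log2 ratio in HCC1954 was −0.29, −0.33, 0.00, −0.17, −0.06 and −0.50 from 30 min to 24 h, a mean of −0.22 ± 0.18 (SD, n = 6). The called difference between lines (limma adjusted p = 0.0113) set these values against 4 lines in which no ratio was measured. With spots without detected signal treated as missing, only HCC1954 kept values, and the lines could not be compared.

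BMP7 encodes a ligand of the osteogenic protein subgroup, which is often highly expressed in breast tumours. Its 3 probes lay on the minus strand of hg18 chromosome 20. The probes A_23_P154643 (chr20:55177211-55177264) and A_23_P68487 (chr20:55178962-55179021) were 1751 bases apart, and A_24_P91566 (chr20:55236787-55236846) lay another 57825 bases upstream. All 3 were measured in all 5 lines, and they ranked the lines in nearly the same order. SK-BR-3 was highest, followed by ZR-75-30 and HCC1419, and HCC1954 and MDA-MB-361 were lowest. At A_23_P68487 the vehicle level of SK-BR-3 spanned 15.97 to 16.41 with a median of 16.22, and that of MDA-MB-361 spanned 10.58 to 11.38 with a median of 11.21. The means were 33.7-fold apart. The corresponding spans between the highest and the lowest line were 24.7-fold at A_23_P154643 and 38.6-fold at A_24_P91566.

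The neighbours in this order differed at all 3 probes down to the fourth line. At A_23_P68487 SK-BR-3 exceeded ZR-75-30 by 0.81 ± 0.10 (SE, exact permutation adjusted p = 0.00487), and ZR-75-30 exceeded HCC1419 by 0.70 ± 0.08 (exact permutation adjusted p = 0.00487). The 2 lowest lines, HCC1954 and MDA-MB-361, overlapped at this probe and differed by 0.99 ± 0.52 (exact permutation adjusted p = 0.111). They differed at A_24_P91566 by 0.88 ± 0.24 without overlap (exact permutation adjusted p = 0.00487), and at A_23_P154643 by 0.03 ± 0.17 in the opposite order (exact permutation adjusted p = 0.864). HCC1954 at 1 h stood apart with a BMP7 level of 14.29, against 10.99 to 12.59 on its other 5 arrays. Without it the HCC1954 mean at A_23_P68487 was 11.68 in place of 12.12.

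The BMP7 ratios depended on the probe. At A_23_P68487 the log2 ratio was above 0 on all 6 arrays of SK-BR-3 (lowest, median and highest 0.13, 0.37 and 0.80) and below 0 on all 6 of MDA-MB-361 (−0.67, −0.28 and −0.01), so that these lines did not overlap. In ZR-75-30 it was 0.31 ± 0.28 (SD, n = 6), in HCC1954 0.09 ± 0.18 and in HCC1419 −0.05 ± 0.12. The line means spanned 0.77 (limma F test adjusted p = 0.00414).

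The other 2 BMP7 probes did not follow this pattern. In SK-BR-3 their mean log2 ratios were −0.09 ± 0.33 and −0.23 ± 0.33 (SD, n = 6, for A_23_P154643 and A_24_P91566), and the MDA-MB-361 means were 0.02 ± 0.15 and 0.04 ± 0.08. Over the 30 arrays, which share lines and slides, the ratio of A_23_P68487 correlated with those of the other 2 with r = 0.07 and r = 0.00, whereas the levels of the 3 probes correlated with r between 0.92 and 0.96. Neither of the other probes was called for differences between lines (adjusted p = 0.316 and 0.0951), but A_24_P91566 was called with the software log ratio (adjusted p = 0.0442), the authors' value table (0.0432) and array weights (0.0235). The difference at A_23_P68487 was not called without MDA-MB-361 (adjusted p = 0.110) or when loess was replaced by a single factor per array (span 0.97, adjusted p = 0.276). On the 1 scan day that held arrays of 2 lines, HCC1954 had ratios of 0.25, 0.20 and 0.21 at this probe, and ZR-75-30 had 0.13, 0.17 and 0.47, which overlapped.

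**Figure D2:**
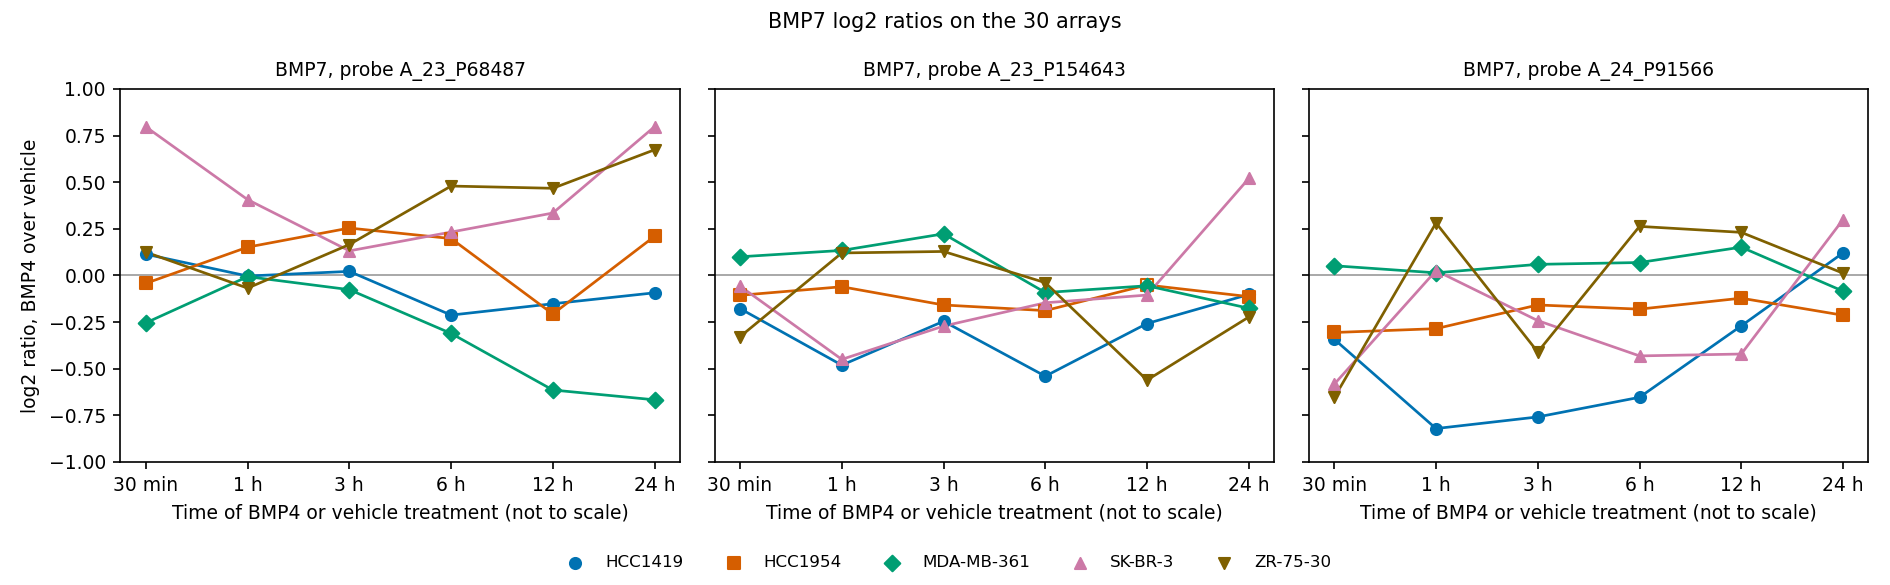
Log2 ratio of BMP4 over vehicle for the 3 BMP7 probes at the 6 time points, 1 line of points per cell line, each point 1 array. At A_23_P68487 SK-BR-3 lay above 0 and MDA-MB-361 below 0 on all 6 arrays, a separation not seen at the other 2 probes.

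GDF15 encodes a distant family member that is induced by many cellular stresses and signals through GFRAL. Its probe, at hg18 chr19:18360890-18360949 on the plus strand, was measured in all 5 lines. The vehicle level was highest in ZR-75-30 (lowest, median and highest 15.32, 15.89 and 16.42) and lowest in SK-BR-3 (9.55, 10.09 and 10.77), and the means were 51.4-fold apart. ZR-75-30 exceeded HCC1419 by 1.31 ± 0.25 (SE, exact permutation adjusted p = 0.00487), and HCC1954 exceeded SK-BR-3 by 2.82 ± 0.28 (exact permutation adjusted p = 0.00487). HCC1419 and MDA-MB-361 differed by 0.48 ± 0.34, less than their spread (exact permutation adjusted p = 0.247). The vehicle level was not constant within a line. In HCC1419 it was 15.11, 14.91, 14.63, 14.38, 14.29 and 13.86 from 30 min to 24 h, and in MDA-MB-361 it was 14.40, 14.51, 14.58 and 14.40 up to 6 h and then 13.47 and 12.89.

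The GDF15 log2 ratio at 3 h was below 0 in all 5 lines, with −0.81 in HCC1419, −0.64 in HCC1954 and −0.62 in ZR-75-30. The ratio was nearer to 0 in SK-BR-3 (−0.39) and MDA-MB-361 (−0.27). The mean of −0.55 ± 0.13 (limma SE, from the spread on all 30 arrays) had a limma adjusted p of 0.0777 in the test against 0. It passed with the software's own log ratio and when the cell line entered the fit as a block, and the dye bias of the probe remains part of it. At 6 h the mean was −0.42 and MDA-MB-361 was above 0, and at 30 min it was −0.14 with HCC1954 at 0.38. The late change, in which a constant dye bias cancels, was −0.19 ± 0.15 (SE; adjusted p = 0.971) and was below 0 in 3 of 5 lines. The difference between lines did not pass (adjusted p = 0.506).

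INHBA encodes the subunit of activin A. Its probe, at hg18 chr7:41695771-41695830 on the minus strand, was measured in HCC1954, SK-BR-3 and ZR-75-30 and partly detected in the other 2 lines. The vehicle level in HCC1954 spanned 8.93 to 11.43 with a median of 10.88, above every array of SK-BR-3, which spanned 7.34 to 8.53. The difference in means was 2.64 ± 0.41 (SE, exact permutation adjusted p = 0.00487). The lowest HCC1954 value was that of 1 h, and the other 5 arrays lay between 10.56 and 11.43. The mean log2 ratios were 0.01 ± 0.20, 0.04 ± 0.22 and −0.03 ± 0.18 (SD, n = 6) in HCC1954, SK-BR-3 and ZR-75-30. The values lay on both sides of 0 in each of the 3 lines, and the late change was −0.03 ± 0.08 (SE; limma adjusted p = 0.995).

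CHRD encodes chordin, which binds BMP2, BMP4 and BMP7 and is cut by the BMP1 and tolloid proteases. Both probes lay on the plus strand of hg18 chromosome 3, A_24_P117725 at chr3:185587397-185587568 and A_23_P502047 at chr3:185590187-185590246, with starts 2790 bases apart. Both were measured in all 5 lines, on all 30 arrays and in both channels. The vehicle level of A_23_P502047 was 8.57 ± 0.25 (SD, n = 6) in MDA-MB-361, 8.53 ± 0.30 in HCC1419 and 8.39 ± 0.19 in ZR-75-30, which did not differ beyond their spread. It was 7.91 ± 0.22 in SK-BR-3 and 7.33 ± 0.19 in HCC1954, and each of these was lower than the line above it (exact permutation adjusted p = 0.0117 and 0.00820).

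The CHRD promoter is shown because A_23_P502047 was the only member probe called for a trend within a line in the main fit. That test, given below, was chosen after the values were seen. Of the 10 genes, 7 (all but BMP2, BMP7 and NOG) had promoter windows in the RefSeq table for GRCh38.p14, which run from 250 bases before to 50 bases after a transcription start. The letters GGCGCC, to which BMP-activated SMADs bind, stand in capitals in the CHRD window at GRCh38.p14 chr3:184379804-184380103, plus strand.
CHRD: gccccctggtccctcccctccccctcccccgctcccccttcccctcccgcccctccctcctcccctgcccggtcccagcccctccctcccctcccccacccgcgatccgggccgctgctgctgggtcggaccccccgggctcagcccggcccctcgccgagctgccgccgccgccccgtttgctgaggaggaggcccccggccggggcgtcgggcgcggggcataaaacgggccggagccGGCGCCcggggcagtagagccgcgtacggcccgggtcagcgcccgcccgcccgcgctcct
The motif, which reads the same on both strands, occurred 1 time in this window, in 3 of the 10 windows of member genes and in 19.2% of all 35116 windows. The other letters searched, GTCT on either strand, occurred 0 times in the CHRD window, in 9 of the 10 member windows and in 84.0% of all windows. The 3 windows with GGCGCC were 1 of the 3 of BMP4, 1 of the 2 of GREM1 and that of CHRD, and a match is a description of the letters and not a binding site.

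At A_23_P502047 the log2 ratio in HCC1419 was 0.05, 0.53, 0.92, 1.37, 1.42 and 1.10 from 30 min to 24 h. In MDA-MB-361 it was −0.15, 0.29, 0.26, 0.80, 1.36 and 1.38. These 2 lines held all 5 arrays at 2-fold or more, with 2.58-fold, 2.67-fold and 2.14-fold in HCC1419 at 6, 12 and 24 h and 2.56-fold and 2.61-fold in MDA-MB-361 at 12 and 24 h. It was the only one of the 13 member probes with such an array. Of all probes 7.8% had at least 1, so the member share was close to the background. With the software's log ratio 4 member probes had one, but 3 of these (BMP4, NOG and SOST) were well above background on 16 arrays or fewer. The share of all probes with that ratio is not given here, so the count of 4 has no background beside it.

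In the other 3 lines the CHRD ratio stayed between −0.18 and 0.59. It was 0.42, 0.15, −0.18, 0.07, 0.03 and 0.27 in HCC1954 and 0.28, 0.59, 0.21, 0.12, 0.12 and 0.46 in SK-BR-3. In ZR-75-30 it was 0.10, −0.13, 0.41, 0.12, 0.44 and 0.51. At 24 h it was above 0 in 5 of 5 lines, and at 6 and 12 h it was also above 0 in all 5. The 24 h mean was 0.75 ± 0.20 (limma SE, from the spread on all 30 arrays, limma adjusted p = 0.0511 against 0). It passed in the fit blocked by line.

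The slope over the order of the 6 time points was tested within each line, a test chosen after these values were seen. It was 0.24 ± 0.05 per step (SE; limma adjusted p = 0.0428) in HCC1419 and 0.33 ± 0.05 (adjusted p = 0.00202) in MDA-MB-361. The slopes were 0.10 ± 0.05 in ZR-75-30 (adjusted p = 0.288), −0.02 ± 0.05 in HCC1954 and −0.02 ± 0.05 in SK-BR-3. Among the 13 member probes A_23_P502047 was the only one called for such a trend in this fit, in HCC1419, where 0.295% of all probes were called, and in MDA-MB-361, where 0.698% were. No member probe was called in ZR-75-30, SK-BR-3 or HCC1954, where the shares of all probes called were 5.68%, 0.0659% and 0.00488%. With 1 factor per array BMP7 probe A_24_P91566 (slope 0.27) and GDF15 (slope 0.31) were also called in HCC1419, and without 30 min BMP4 (slope −0.10) and BMP7 probe A_23_P68487 (slope 0.18) were called in ZR-75-30. The slopes differed between the lines for this 1 member probe (adjusted p = 0.0433), as for 0.368% of all probes, but for none with the software's log ratio, the authors' value table, 1 factor per array or the slide as a block.

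The CHRD call in MDA-MB-361 was also made without any single time point and was lost with 1 factor per array (adjusted p = 0.0761). That in HCC1419 was lost with the slide as a block (slope 0.24, adjusted p = 0.0513), with the authors' value table (slope 0.28, adjusted p = 0.0577) and when any one of the first 5 time points was left out (slopes 0.16 to 0.24). It was made with the software log ratio (slope 0.29, adjusted p = 0.0479), 1 factor per array (slope 0.36, adjusted p = 0.00176) and without 24 h (slope 0.36, adjusted p = 0.00481). The slides of a line held different time points. In HCC1419 1 slide held 30 min to 6 h (0.05 to 1.37), and the other held 12 h (1.42) and 24 h (1.10). In MDA-MB-361 1 slide held 30 min (−0.15) and 1 h (0.29), and the other held 3 to 24 h (0.26 to 1.38). The line means spanned 0.77, from 0.90 ± 0.53 (SD, n = 6) in HCC1419 to 0.13 ± 0.21 in HCC1954 (F test adjusted p = 0.0253), and this call was lost without HCC1419 (adjusted p = 0.182) or MDA-MB-361 (adjusted p = 0.0978), with the software log ratio (adjusted p = 0.0528) and with 1 factor per array (adjusted p = 0.122). On the scan day shared by 2 lines the ratios were −0.18, 0.07 and 0.27 in HCC1954 and 0.10, 0.41 and 0.44 in ZR-75-30.

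The second CHRD probe, A_24_P117725, did not show these values. Its log2 ratio spanned −0.03 to 0.21 in HCC1419 and −0.03 to 0.22 in MDA-MB-361, and its slopes were 0.02 ± 0.03 and 0.03 ± 0.03 per step (SE), of which neither passed (adjusted p = 0.786 in MDA-MB-361). Its vehicle level spanned 7.12 to 8.16 over the 30 arrays. The background offset of 50 narrows the ratios of dim spots, and whether this probe could have shown a rise was not tested. Its line means of the ratio spanned 0.11, against 0.28 with the software log ratio and 0.27 with the authors' value table. The difference between lines was called in none of these settings. The levels of the 2 CHRD probes correlated with r = 0.07 over the 30 arrays and their ratios with r = 0.43. The result for CHRD therefore rested on 1 of its 2 probes.

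**Figure D3:**
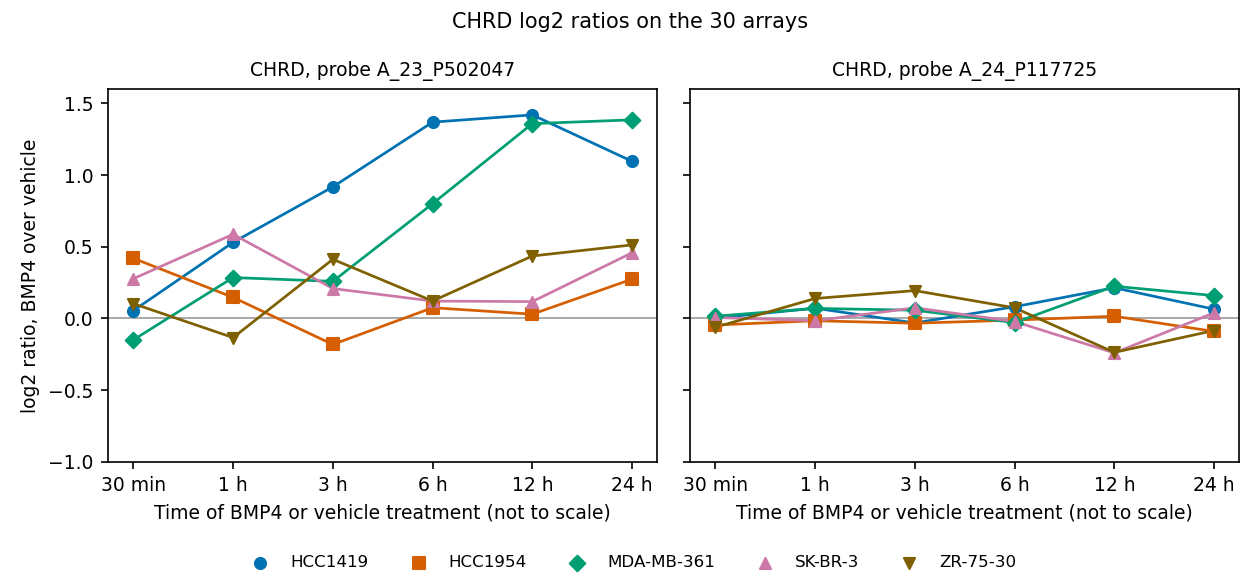
Log2 ratio of BMP4 over vehicle for the 2 CHRD probes at the 6 time points, 1 line of points per cell line, each point 1 array. At A_23_P502047 HCC1419 and MDA-MB-361 went from 0.05 and −0.15 at 30 min to 1.42 and 1.36 at 12 h, whereas at A_24_P117725 all 30 values lay between −0.24 and 0.22.

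FST encodes follistatin. Its probe, at hg18 chr5:52816594-52816653 on the plus strand, was measured in HCC1954 and ZR-75-30, not detected in HCC1419 and MDA-MB-361, and well above background in SK-BR-3 on the 12 h array only (vehicle level 7.62). The vehicle level in HCC1954 spanned 10.54 to 13.00 with a median of 11.82, and in ZR-75-30 it spanned 9.02 to 9.63 with a median of 9.39. The means differed by 2.59 ± 0.38 (SE, exact permutation adjusted p = 0.00487). HCC1954 was at least 42.7-fold higher than HCC1419 and at least 45.5-fold higher than MDA-MB-361, the widest bounds among the members. The lowest HCC1954 value was again that of 1 h, and the mean without it was 12.27 in place of 11.98.

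The FST log2 ratio in HCC1954 was −0.04, 0.03, −0.06, −0.27, −0.31 and −0.54 from 30 min to 24 h, and in ZR-75-30 it was −0.12, 0.14, 0.51, 0.12, 0.10 and −0.08. The ranges of these lines overlapped. The difference between lines, in a test that included 3 lines without a measured FST ratio, had a limma adjusted p of 0.0555 and passed with array weights and with the scan day as a block. The late change was 0.04 ± 0.07 (SE; adjusted p = 0.988).

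**Figure D4:**
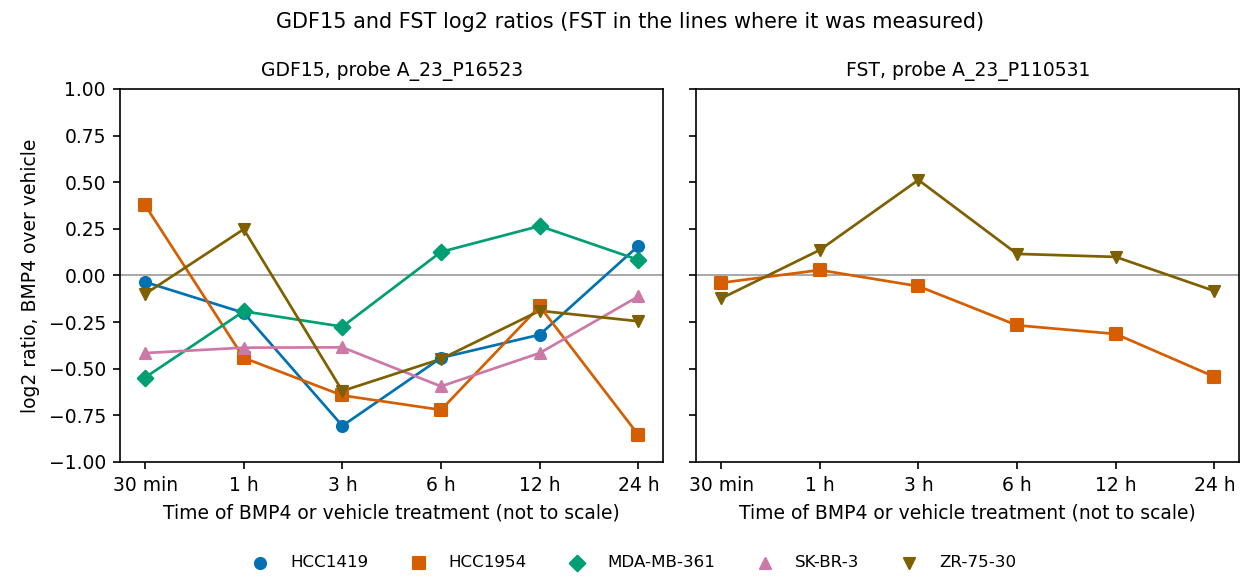
Log2 ratio of BMP4 over vehicle for GDF15 in the 5 lines and for FST in the 2 lines where it was measured, by time point, each point 1 array. All 5 GDF15 values at 3 h lay below 0, between −0.81 and −0.27, and FST ran from −0.04 to −0.54 in HCC1954.

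NOG encodes noggin, a direct target of BMP signaling in bone and cartilage. Its probe, at hg18 chr17:52027218-52027277 on the plus strand, was well above background on 5 arrays, all of HCC1954, and on no array of the other lines. The vehicle level in HCC1954 spanned 6.64 to 7.91, and the 1 h array held the lowest value and was the one not above background. The HCC1954 mean was at least 1.69-fold to 1.83-fold higher than in the other lines. The log2 ratios on the 5 arrays with signal were 0.16, 0.29, 0.12, 0.05 and −0.07 at 30 min, 3, 6, 12 and 24 h. The call at 3 h (mean 0.19 ± 0.04, limma SE from the spread on all 30 arrays, limma adjusted p = 0.0493) came from 5 arrays of which 1 had detected signal. With spots without detected signal treated as missing, 1 array was left at 3 h, so that setting could not test the call.

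SOST, which encodes sclerostin, and GREM1, which encodes gremlin 1 and is made by fibroblasts in many tumours, were at or near background. The SOST probe (hg18 chr17:39187494-39187553, minus strand) was well above background in both channels on 1 array and the GREM1 probe (hg18 chr15:30813367-30813426, plus strand) on 1. For both this was the 1 h array of HCC1419, where the vehicle levels were 7.42 and 7.30, against 6.67 and 6.41 at most on the other HCC1419 arrays. The log2 ratios on that array were 0.16 and 0.10. SOST also passed in Cy3 alone in HCC1954 at 3 h and in Cy5 alone in ZR-75-30 at 6 h. No other ratio of these 2 genes was measured.

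Gene patterns most like those of the members were sought among 17927 to 17929 probes of named genes that were well above background in both channels on at least 15 arrays. Over the 30 arrays, which share lines and slides, the ratio of CHRD probe A_23_P502047 was most like those of IGFBP3 (r = 0.84) and SEMA3B (r = 0.84). For GDF15 the nearest ratios were CUGBP1 (r = 0.74) and EXOC7 (r = 0.72), and for BMP4 SSBP4 (r = 0.79) and HDHD3 (r = 0.76). The 3 BMP7 probes had different nearest genes, LRRC20 and SLC19A2 (both r = 0.84) for A_23_P68487, SEZ6L2 (r = 0.78) and CHP (r = 0.76) for A_23_P154643, and TUT1 (r = 0.89) and TMEM159 (r = 0.88) for A_24_P91566. For INHBA the nearest ratios were UBE2L3 (r = 0.65) and RPL21 (r = 0.62), and for CHRD probe A_24_P117725 HCRT (r = 0.82) and POLM (r = 0.79).

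In vehicle level, which mainly follows the differences between lines, the nearest genes were PAPSS2 (r = 0.95) and LHX2 (r = 0.95) for BMP4, FZD7 and SLC27A2 (both r = 0.94) for GDF15, and SERPINB8 and AYTL1 (both r = 0.97) for INHBA. For the BMP7 probes they were FAM82B (r = 0.97) and BDKRB2 (r = 0.96) for A_23_P68487, RASAL1 and OVGP1 (both r = 0.96) for A_23_P154643, and ZNF313 and SC65 (both r = 0.97) for A_24_P91566. The CHRD probes had PCDHB13 and WBP1 (both r = 0.91) for A_23_P502047 and TMED4 and SLC39A3 (both r = 0.89) for A_24_P117725.

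The other ligands, extracellular antagonists or modulators and processing proteases of the family came to 52 genes with 76 probes. Of these probes 33 were well above background in both channels on at least 15 arrays and 18 on none. For the late change and for any change over time, 0 of 76 passed, and the median late change was 0.01. Against 0 at single time points 2 of 76 passed, both at 24 h, where 1.58% of all probes were called. INHBB, the second activin subunit, had a mean log2 ratio of −0.33 (limma adjusted p = 0.0180), and FSTL1 one of 0.27 (adjusted p = 0.0355). At 30 min these means were −0.26 and 0.08, and dye bias remains part of them. The late changes, in which a constant dye bias cancels, were 0.03 ± 0.08 and 0.05 ± 0.08 (SE; limma adjusted p = 0.995 and 0.988). Between lines 14 of 76 were called, a share below that of all probes.

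Those 14 probes belonged to BAMBI, a decoy receptor induced by BMP signaling, BMP1, BMP8A, FSTL5, FURIN, GDF11, INHBC, LEFTY1, RGMB, TGFB3, TLL2 and TWSG1, the last with all 3 of its probes. BMP1, BMP8A, INHBC, RGMB, TGFB3 and TLL2 also had probes that were not called. The FSTL5 and LEFTY1 probes were well above background in both channels on 12 and 14 of the 30 arrays. BAMBI had 5 arrays at 2-fold or more and its mean log2 ratio was 1.10 in HCC1419 and 0.01 in MDA-MB-361 (adjusted p = 0.000573). The means of the other lines were 0.47 (SK-BR-3), 0.34 (ZR-75-30) and 0.23 (HCC1954). HCC1419 was thus the line with the highest mean ratio for BAMBI and for CHRD probe A_23_P502047, whereas MDA-MB-361, second for CHRD with 0.66 ± 0.63 (SD, n = 6), was lowest for BAMBI. The TWSG1 probes, whose product works with chordin, had mean log2 ratios from −0.38 to −0.27 in MDA-MB-361, below every mean of the other lines, which ran from −0.03 to 0.32.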

How the data were processed

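RNA of BMP4-treated (Cy5) and vehicle-treated (Cy3) cells was hybridised to 30 two-colour arrays. Per the file headers, the authors' scanner files were made with Feature Extraction 9.5.1.1 on build hg18, and the mean and background signals are intensity values without normalization. The deposited software log ratio is a log10 ratio of dye-normalized signals. The authors' value table holds a log2 ratio per probe with each array's median at 0, and its columns correlated with the log2 ratio of the processed signals with r of at least 0.9998.

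Here signals were corrected with normexp (offset 50) over 45015 spots, the 1639 control spots got weight 0 in loess, spots marked as outliers were set to missing, and spots were averaged per probe (limma 3.58.1, R 4.3.3). Levels were Aquantile-normalized between arrays. The number of arrays sets the precision. Tests used lmFit and eBayes on all 41000 probes with Benjamini-Hochberg adjustment, called at 0.05: each time point against 0 (no block), late change and change over time (line as block), and differences between lines in ratio and in vehicle level (time point in the model). Neighbouring lines in the order of levels were compared by two-sided exact permutation tests, adjusted over 36 pairs, for which 0.00216 is the smallest unadjusted p possible. The permutations did not pair the arrays by time point, so changes of level over time stayed in the spread. Probe coordinates are those of the files. The fits were tested on simulated data.

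Replicate numbers stand for the 5 lines and pair arrays across time points. After each time point's mean was subtracted, arrays of 1 line correlated at r = 0.23 on average and arrays of different lines at −0.09. Alternatives were other sources and scalings of the ratios, array weights, filters on dim spots, scan day or slide as a block, and leaving out lines or time points. Named were all member probes, the other family genes called in any ratio test and the 2 most alike genes by correlation. Members and gene lists were chosen with earlier results of these data known.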

Additional observations from a re-analysis of the deposited data

Results flagged for a closer look

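Of 110 groups of 5 or 6 values examined, 5 held a value far from the others by Dixon's test, which marks about 1 in 20 by chance. These were the log2 ratio of BMP7 probe A_23_P154643 in SK-BR-3 at 24 h (0.52, the highest), that of CHRD probe A_24_P117725 in SK-BR-3 at 12 h (−0.24, the lowest) and 3 vehicle levels, all the lowest of their line. The levels were 10.58 for BMP7 probe A_23_P68487 in MDA-MB-361 at 24 h, 8.93 for INHBA in HCC1954 at 1 h and 7.12 for CHRD probe A_24_P117725 in ZR-75-30 at 6 h.

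Differences between lines by limma's F test were found for the mean ratios of BMP2 (span 0.26, measured in HCC1954 only), BMP7 probe A_23_P68487 (span 0.77) and CHRD probe A_23_P502047 (span 0.77). The slopes of that CHRD probe also differed (span 0.35 per step of time), by a test chosen after the values were seen. The slope call was not made with the software's log ratio, the authors' value table, 1 factor per array or the slide as a block. HCC1954 at 1 h was the array with the highest BMP7 and the lowest INHBA, NOG and FST vehicle level of that line. It differed from the mean of the other 5 arrays by 2.61 at BMP7 probe A_23_P68487, −2.04 at INHBA, −0.95 at NOG and −1.72 at FST, and the Cy5 levels on that array were 14.44, 9.07, 6.72 and 10.57.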

How the results depend on the processing

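No member probe was called for late change or change over time under any of the 14 alternatives for each. Member calls against 0 were 1 in the main setting, 2 with the software log ratio, 2 with the authors' value table, 0 with 1 factor per array, 5 with array weights and 4 with the cell line (replicate) block, and 0 to 1 with a line left out. NOG at 3 h was among the calls with array weights, with the block and without SK-BR-3. CHRD at 24 h was the 1 call when dim spots were set to missing, dim probes were left out or the scan day was a block. Leaving out dim probes removed NOG, and setting dim spots to missing left it 1 array at 3 h. Calls for ratio differences between lines were 3, but 0 with 1 factor per array, 5 with array weights and 0 to 3 with a line left out (0 without MDA-MB-361). They were 2 when dim spots were set to missing or dim probes left out, settings in which BMP2 could not be tested. The count of 3 held other probes with the software log ratio (BMP7 probe A_24_P91566 for CHRD), the authors' value table (A_24_P91566 for BMP2) and the scan day as a block (FST for BMP2). Vehicle level calls stayed between 10 and 12 under all 14 alternatives. Apart from the cell line block, no share of all probes is given for the alternatives, so these counts cannot be set against a background.

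Member trends within a line were 2, 1 with the authors' value table, 1 with the slide as a random block, 3 with 1 factor per array and 1 to 3 with a time point left out. Trends that differed between lines were 1, 0 with the software log ratio, the authors' value table, 1 factor per array or the slide block, and 0 to 2 with a time point left out. Probes at 2-fold or more on an array were 1, against 4 with the software log ratio and 4 with the authors' value table. For the alternatives the shares of all probes are not given here either.

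Uncalled values near 0 changed sign. With 1 factor per array the late change became 0.13 for BMP7 probe A_23_P154643, 0.16 for A_23_P68487 and 0.087 for GDF15. With a line left out it spanned −0.050 to 0.020, −0.16 to 0.023 and −0.38 to 0.011 for the same probes. The CHRD slope spanned −0.085 to 0.047 in HCC1954 and −0.079 to 0.016 in SK-BR-3 with a time point left out. The cause was not tested in any of these cases. The probes of NOG, SOST, GREM1 and BMP2 give ratios on few arrays or none.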
